A study of Homo sapiens with 8 samples.

Results

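The genes described here are 42 human genes of the G1/S transition and of DNA replication, picked by symbol from a table that lists 55737 genes. All 42 passed the filter on low values (10 normalised counts or more on average over the 8 libraries), as did 19393 genes in all. They were measured by RNA sequencing in LNCaP, a human prostate cancer cell line. There were 4 groups of 2 libraries, each harvested 4 h after treatment: 40 µM OSMI-2, an inhibitor of O-GlcNAc transferase (OGT), together with 0.5 µM AT7519, an inhibitor of several cyclin-dependent kinases (CDKs) including CDK9; 0.5 µM AT7519 alone; 40 µM OSMI-2 alone; and a control of which the labels say no more. The series title puts the question as whether cells with inhibited OGT come to depend on CDK9. The groups share 1 cell line, and nothing in the labels says that the 2 libraries of a group came from separate cultures, so p-values measure the spread between libraries, which may be technical.

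Before a cell can copy its DNA, origins are licensed in G1: the origin recognition complex, CDC6 and CDT1 load the ring-shaped MCM helicase onto DNA. In S phase the helicase is activated by CDC45 and the GINS complex, the clamp PCNA is loaded by the RFC complex, and the polymerases alpha, delta and epsilon copy the strands with nucleotides supplied by ribonucleotide reductase and thymidylate synthase. Most of these genes are transcribed under E2F factors, which the retinoblastoma protein restrains until CDKs phosphorylate it. In a bulk library, fewer cells in S phase and less RNA per cell cannot be told apart.

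The promoters of these genes are known for E2F sites and CCAAT boxes, so the letters at 6 of them are shown. They include the genes with the largest fall with OSMI-2 (MCM7), with AT7519 (CLSPN) and with the combination (GINS3), each against control. The others are TK1, with the largest rise with AT7519 on the deposited scale, and the licensing and E2F genes CDC6 and E2F1. Each window, from RefSeq on GRCh38.p14, runs 5′ to 3′ on the gene's own strand for 300 bases, 250 before the annotated start and 50 after it. Capitals mark matches on either strand to the E2F-type letters TTTCCCGC, TTTGGCGC, TTTGCCGC or TTTCGCGC, and to CCAAT. A match is a description of letters, not evidence of binding. The windows lie at chr7:100101348-100101647 on the minus strand (MCM7), chr1:35769929-35770228 on the minus strand (CLSPN), chr16:58392221-58392520 on the plus strand (GINS3), chr17:78187003-78187302 on the minus strand (TK1), chr17:40287629-40287928 on the plus strand (CDC6), chr20:33686336-33686635 on the minus strand (E2F1).
MCM7: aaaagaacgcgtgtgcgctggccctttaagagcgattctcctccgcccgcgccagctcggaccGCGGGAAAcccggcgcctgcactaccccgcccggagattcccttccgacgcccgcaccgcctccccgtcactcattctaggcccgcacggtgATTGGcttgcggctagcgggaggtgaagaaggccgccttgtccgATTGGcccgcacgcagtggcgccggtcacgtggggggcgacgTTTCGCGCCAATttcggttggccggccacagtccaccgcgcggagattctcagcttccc
CLSPN: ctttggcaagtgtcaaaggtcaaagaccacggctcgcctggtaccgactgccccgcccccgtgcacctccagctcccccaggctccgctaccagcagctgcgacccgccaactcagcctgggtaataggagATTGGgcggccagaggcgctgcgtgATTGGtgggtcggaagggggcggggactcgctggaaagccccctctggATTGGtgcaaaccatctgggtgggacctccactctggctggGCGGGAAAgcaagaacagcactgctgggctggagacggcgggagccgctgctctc
GINS3: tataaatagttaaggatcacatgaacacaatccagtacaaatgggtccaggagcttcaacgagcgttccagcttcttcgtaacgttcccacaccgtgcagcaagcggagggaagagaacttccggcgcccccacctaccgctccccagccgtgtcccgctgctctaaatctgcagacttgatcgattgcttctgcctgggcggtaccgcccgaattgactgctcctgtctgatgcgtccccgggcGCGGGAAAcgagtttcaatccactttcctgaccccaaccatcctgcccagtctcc
TK1: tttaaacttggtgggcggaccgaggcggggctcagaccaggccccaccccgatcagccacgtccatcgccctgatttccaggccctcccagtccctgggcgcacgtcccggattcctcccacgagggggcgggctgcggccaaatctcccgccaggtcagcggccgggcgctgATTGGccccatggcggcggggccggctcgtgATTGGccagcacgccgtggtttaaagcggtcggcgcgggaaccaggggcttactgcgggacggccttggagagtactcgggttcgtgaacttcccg
CDC6: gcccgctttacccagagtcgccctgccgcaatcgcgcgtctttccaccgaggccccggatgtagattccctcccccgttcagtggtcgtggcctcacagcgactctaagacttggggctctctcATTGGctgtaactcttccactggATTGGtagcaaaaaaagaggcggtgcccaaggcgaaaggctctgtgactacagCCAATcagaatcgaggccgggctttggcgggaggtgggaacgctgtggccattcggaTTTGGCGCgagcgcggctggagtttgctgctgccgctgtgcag
E2F1: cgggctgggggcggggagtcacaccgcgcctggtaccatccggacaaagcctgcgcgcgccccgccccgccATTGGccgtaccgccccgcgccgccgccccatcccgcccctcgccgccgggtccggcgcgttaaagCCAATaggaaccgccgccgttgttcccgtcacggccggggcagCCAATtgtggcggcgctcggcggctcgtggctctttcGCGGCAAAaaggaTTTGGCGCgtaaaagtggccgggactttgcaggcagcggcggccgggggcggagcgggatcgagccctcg

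In the window shown, MCM7 held 2 E2F-type matches and 3 CCAAT matches. In this window alone among the 49 member windows a match of each kind overlapped. E2F1, whose product is itself an E2F factor, also held 2 and 3. The other windows of MCM7 held no E2F-type match and 1 CCAAT match each. CLSPN and CDC6 each had 1 E2F-type match and 3 CCAAT matches, and GINS3 had 1 E2F-type match with no CCAAT. TK1 had 2 CCAAT matches and no E2F-type match in this window, and no match of either kind in its other window. RefSeq windows were found for 39 of the 42 genes (MCM4, MCM5 and GINS4 were not matched), 8 of them with more than 1 window. At least 1 E2F-type match stood in the windows of 23 of the 39 genes, or 58.97%, against 3.99% of 27305 genes with a window. CCAAT stood in 24 of 39, or 61.54%, against 39.72% of all, and the CHR letters of mitotic genes (TTTGAA or TTCGAA) in 3, or 7.69%, against 19.54% of all.

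The libraries held 60152710 to 154367238 gene reads, and the 42 genes took 0.251% to 0.374% of them. The fewest reads behind any value were 263, for GINS3 in a combination library. The luminal prostate marker KLK3, which encodes prostate-specific antigen, averaged 137806 normalised counts in combination libraries, 104062 with AT7519, 115305 with OSMI-2 and 96182 in control, while 3 leukocyte markers summed to at most 11.8 and 3 basal markers to at most 106. The sum of 4 fibroblast markers, mostly COL1A1, was 3264 to 4373 normalised counts in libraries with AT7519 and 2260 to 2993 in those without, and of the 2 endothelial markers CDH5 was at 0 throughout while VWF kept their sum between 1132 and 1506. Mitochondrial mRNAs took 6.57% to 7.73% of reads in the 4 libraries with AT7519 and 4.45% to 5.53% in the 4 without it. The part of the COL1A1 and mitochondrial levels in the results below was not tested. The deposited scale left the median log2 change of all genes near 0 in each comparison. Scaled to equal read totals or to equal mitochondrial mRNAs, that median was -0.34 or -0.91 with AT7519 and -0.23 or -0.95 with the combination, both against control. A change of scale moves every gene of a library alike, so the distance between the median of the 42 genes and that of all genes is nearly fixed by construction.

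Levels differed widely among the genes. Per kilobase of annotated exon, all isoforms merged, PCNA was the highest of the 42 in each group, at 12684 normalised counts in combination libraries, 17189 with AT7519, 11246 with OSMI-2 and 15040 in control. The lowest was GINS3 in combination and AT7519 libraries, at 99.1 and 163 normalised counts per kilobase, and E2F2 in OSMI-2 and control libraries, at 192 and 268. Among the 6 MCM2 to MCM7 helicase subunits, the control level ran between 898 for MCM5 and 5716 for MCM7 on this scale, with MCM3, MCM6, MCM2 and MCM4 between them at 4239, 3861, 3457 and 2750. In the other groups MCM5 was again the lowest and MCM7 the highest of the 6.

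**Figure D1:**
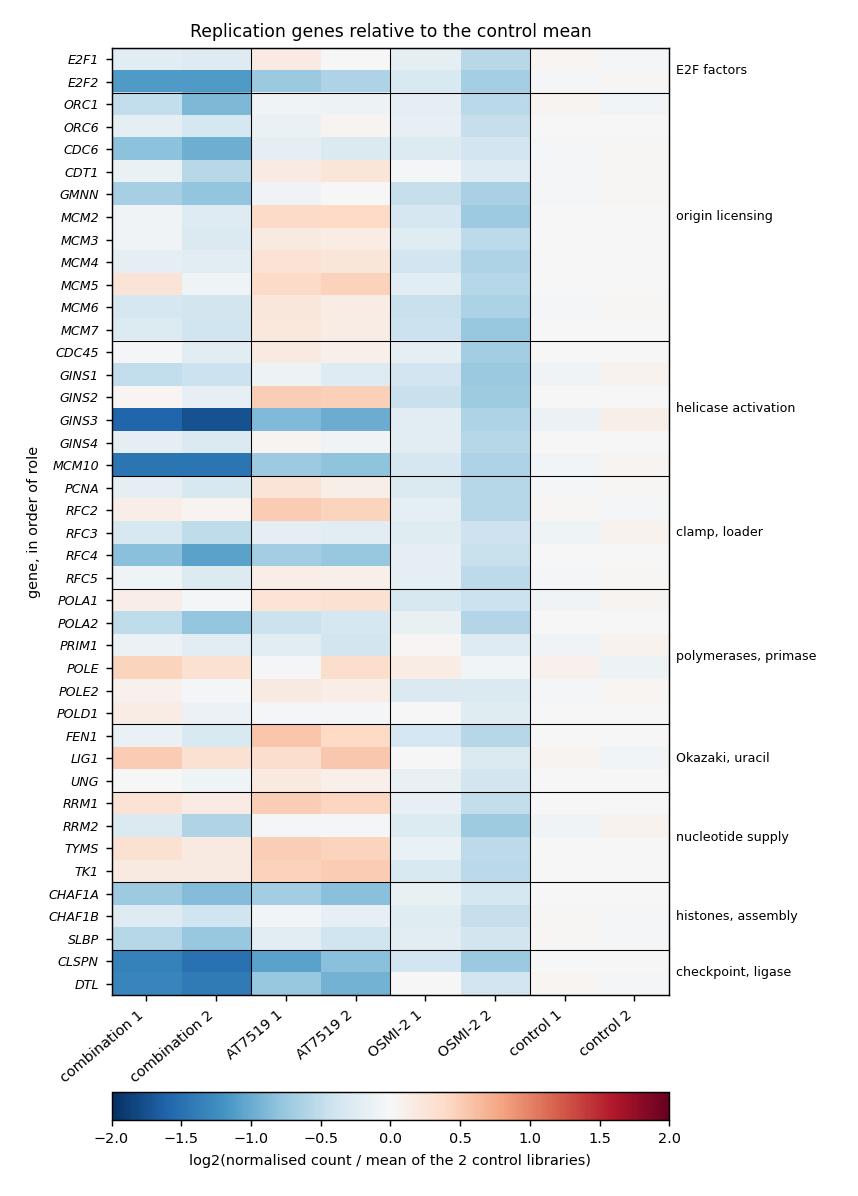
Each row is 1 of the 42 genes in order of role and each column 1 library; colour is the log2 ratio of the normalised count to the mean of the 2 control libraries, from blue (below) over white to red (above). The 2 OSMI-2 columns are blue in nearly every row and paler in replicate 1, the AT7519 columns mix red and blue, and the combination columns are darkest blue at GINS3, MCM10, CLSPN and DTL.

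With OSMI-2 alone, 15 of the 42 genes fell and none rose against control, where 2.38% of all genes tested fell and 0.645% rose. The genes that fell encode 5 of the 6 helicase subunits (MCM7, MCM6, MCM2, MCM4 and MCM3), the licensing inhibitor geminin (GMNN), the helicase activators GINS1, GINS2 and MCM10, the clamp PCNA, the polymerase alpha catalytic subunit POLA1, the flap endonuclease FEN1, the nucleotide enzymes RRM2 and TK1 and the checkpoint adaptor claspin (CLSPN). Changes were small: the 42 genes had a median log2 change of -0.38, against -0.018 over all genes, and 41 of the 42 estimates were negative. The exception was POLE, the catalytic subunit of polymerase epsilon, at 0.051. The called falls ran from 1.51-fold for MCM7 to 1.30-fold for POLA1. By edgeR and DESeq2 none rose either, and no gene had a positive change at an unadjusted p below 0.05 by any of the 3 tests (limma, edgeR, DESeq2), while 36 had a negative one by each. For OSMI-2 against control, the shares of all genes that were negative or passed at an unadjusted p are not given, here or below.

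MCM7, the most abundant of the helicase genes, had 18584 and 14854 normalised counts in the OSMI-2 libraries, against 25062 and 25080.2 in control (log2 change -0.59, SE 0.095, adjusted p = 0.0089). The 2 control libraries were almost equal and both OSMI-2 libraries lay well below them. GINS2, a subunit of the GINS complex, had 2506 and 2096 normalised counts with OSMI-2, against 3422 and 3424 in control (log2 change -0.58, SE 0.11, adjusted p = 0.0144). CLSPN, which carries the replication checkpoint signal to CHK1, had 3434 and 2682 with OSMI-2, against 4497 and 4506 in control (log2 change -0.57, SE 0.12, adjusted p = 0.0264). For all 3 genes the groups did not overlap, and replicate 2 of OSMI-2 was the lower.

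Of the licensing genes, GMNN, which binds CDT1 and blocks a second round of loading, had 3796 and 3319 normalised counts with OSMI-2, against 5107 and 5292 in control, a log2 change of -0.55 (adjusted p = 0.0117). The loaders themselves did not pass the test. CDC6 had 7134 and 6616 normalised counts with OSMI-2, against 8458 and 8707 in control (log2 change -0.32, SE 0.086, adjusted p = 0.061). ORC1, the largest subunit of the origin recognition complex, had 2656 and 2065 with OSMI-2, against 3106 and 2886 in control (log2 change -0.35, SE 0.14, adjusted p = 0.186). For CDC6 and ORC1 both OSMI-2 libraries lay below both control libraries. CDT1 had 3019 and 2561 with OSMI-2, against 3010.4 and 3127 in control (log2 change -0.14, SE 0.13, adjusted p = 0.637), and its OSMI-2 libraries overlapped the control ones.

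None of the E2F factors and none of the genes of histone supply and chromatin assembly passed with OSMI-2. E2F1 had 4573 and 3586 normalised counts with OSMI-2, against 5372 and 5133 in control (log2 change -0.37, SE 0.11, adjusted p = 0.0774). E2F2 had 1181 and 916 with OSMI-2, against 1433 and 1489.9 in control (log2 change -0.49, SE 0.14, adjusted p = 0.0676). SLBP, the stem-loop binding protein of histone mRNAs, had 6059 and 5412 with OSMI-2, against 7142 and 6843 in control (log2 change -0.29, SE 0.10, adjusted p = 0.126). In all 3 of these genes both OSMI-2 libraries were below both controls, but the estimates did not pass adjustment over 19393 genes.

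At the replication fork, PCNA had 18165 and 14919.7 normalised counts with OSMI-2, against 21809 and 22440.1 in control, a log2 change of -0.43 (adjusted p = 0.0298). FEN1, which trims the flaps of Okazaki fragments, had 7716 and 6510.3 with OSMI-2, against 9730.5 and 9693 in control (log2 change -0.45, SE 0.10, adjusted p = 0.026). GINS1 had 6616 and 5159.7 with OSMI-2, against 8155 and 9027 in control (log2 change -0.55, SE 0.11, adjusted p = 0.0192). All 3 fell, with no overlap between the groups. POLE stood apart, with 7251 and 6291 normalised counts with OSMI-2 and 6961 and 6108 in control, which overlap.

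In nucleotide supply, RRM2, the subunit of ribonucleotide reductase that limits its activity in S phase, had 18178 and 13454 normalised counts with OSMI-2, against 20979 and 23050.0 in control (log2 change -0.49, SE 0.12, adjusted p = 0.0468). TK1, the cytosolic thymidine kinase, had 10307 and 8767 with OSMI-2, against 12736 and 12666 in control (log2 change -0.42, SE 0.083, adjusted p = 0.0199). Both fell without overlap. The other pair, RRM1 (the large subunit of the reductase) and TYMS (thymidylate synthase), had log2 changes of -0.33 and -0.33 with adjusted p of 0.0714 and 0.104. RRM1 had 20684 and 16493 normalised counts with OSMI-2, against 23239.5 and 23296 in control. TYMS had 10043 and 7698 with OSMI-2, against 11026 and 11035 in control, so in both genes the groups were separate although the test was not passed.

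The fall with OSMI-2 was seen in both libraries but was deeper in replicate 2. Both OSMI-2 libraries lay below both control libraries for 36 of the 42 genes, where 30.1% of all genes did so, and both lay above for none. The median of the 42 genes, relative to the control mean, was -0.22 (log2) in OSMI-2 replicate 1 and -0.54 in replicate 2, and replicate 2 was the lower for 41 of the 42, against 54% of all genes. The number that fell was 0 of 42 by limma without OSMI-2 replicate 2 (16 at an unadjusted p below 0.05), 0 without control replicate 2 (30 unadjusted), 18 without OSMI-2 replicate 1 and 5 when control replicate 1 was left out. It was 6 with equal totals, 8 with equal upper quartiles, 33 with equal mitochondrial mRNAs, 28 by DESeq2 and 0 by limma without the trend (27 unadjusted). Of all genes tested, 461 fell on the deposited scale, against 118, 154, 1173, 1113 and 0 under those same settings, so that limma without the trend called none of the 19393 genes lower. Leaving out OSMI-2 replicate 2 or either control library also left fewer of all genes called lower, so the loss was not confined to the 42. Of the 15, GMNN, MCM4, MCM6, MCM7, GINS1 and GINS2 also passed on each of 4 other scales (equal totals, equal upper quartiles, TMM factors and equal mitochondrial mRNAs).

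**Figure D2:**
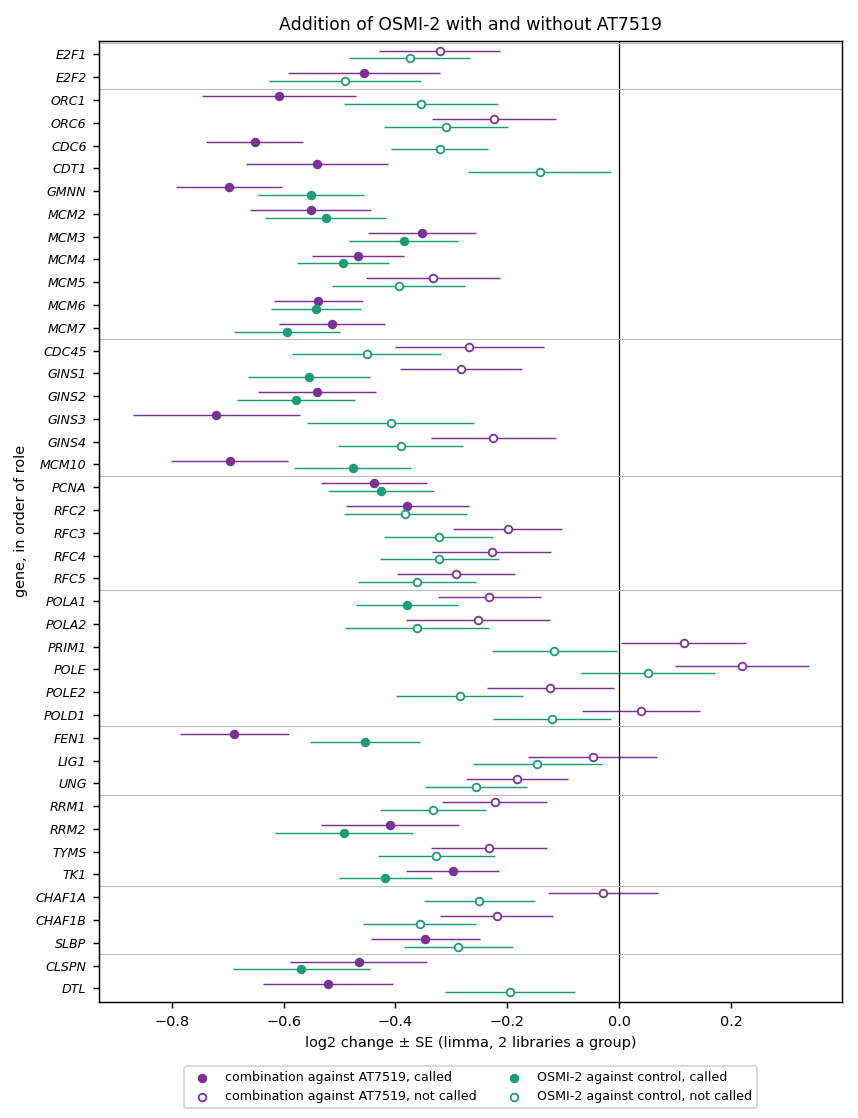
Points are the log2 changes (horizontal axis, limma, 2 libraries a group) of each gene, in order of role down the page, for the combination against AT7519 (purple) and for OSMI-2 against control (green); bars are 1 SE and filled points passed an adjusted p of 0.05. Nearly all points lie left of 0 in both comparisons, with POLE, PRIM1 and POLD1 to the right for the combination against AT7519 and POLE alone for OSMI-2 against control.

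OSMI-2 was also added on top of AT7519, and these 4 libraries are not among those of the comparison with control. Against AT7519 alone, 21 of the 42 genes fell with the combination and none rose, where 12.5% of all genes fell and 7.21% rose. The 21 included 9 of the 11 licensing genes (all but ORC6 and MCM5), both CLSPN and DTL, and E2F2, GINS2, GINS3, MCM10, PCNA, RFC2, FEN1, RRM2, TK1 and SLBP, but none of the 6 polymerase and primase genes. The median log2 change of the 42 was -0.33, against -0.017 over all genes. By edgeR and DESeq2 20 and 26 fell and none rose, and none had a positive change at an unadjusted p below 0.05 by any of the 3 tests.

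GINS3 fell most, with 532 and 479.6 normalised counts in combination libraries, against 864 and 803 with AT7519 (log2 change -0.72, SE 0.15, adjusted p = 0.00451). GMNN had 3289.9 and 2998 in combination libraries, against 4978 and 5207 with AT7519 (log2 change -0.70, SE 0.095, adjusted p = 0.000321). MCM10, which helps switch the loaded helicase on, had 1894 and 1889 in combination libraries, against 3146 and 2989 with AT7519 (log2 change -0.70, SE 0.10, adjusted p = 0.000577). In none of these genes did the groups overlap. FEN1 had 8903 and 7871 in combination libraries, against 14286 and 12739 with AT7519 (log2 change -0.69, SE 0.10, adjusted p = 0.000411). CDC6 had 4852 and 4360.4 in combination libraries, against 7469 and 6991 with AT7519 (log2 change -0.65, SE 0.086, adjusted p = 0.000274).

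The licensing genes CDC6, ORC1 and CDT1, which had not passed with OSMI-2 alone, passed here. ORC1 had 2119 and 1610.3 normalised counts in combination libraries, against 2847 and 2786 with AT7519 (log2 change -0.61, SE 0.14, adjusted p = 0.00755). CDT1 had 2809 and 2099 in combination libraries, against 3444 and 3622 with AT7519 (log2 change -0.54, SE 0.13, adjusted p = 0.00939). Their combination libraries lay below both AT7519 libraries. The difference between the 2 effects of OSMI-2, tested as the interaction, did not pass for CDT1 (log2 -0.40, adjusted p = 0.472), CDC6 (log2 -0.33, adjusted p = 0.313) or ORC1 (log2 -0.25, adjusted p = 0.792).

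Both combination libraries lay below both AT7519 libraries for 37 of the 42 genes, where 30.6% of all genes did so, and above for none. Of the 15 genes that fell with OSMI-2 alone, 13 also fell when it was added to AT7519, which is 86.7% of the 15 and 61.9% of the 21. Both effects were negative in 39 of the 42 genes, with Spearman's rho 0.61 and Pearson's r 0.67 across the 42 genes, which share their libraries and are not independent replicates. The comparisons share no library but do share 1 estimate of the spread. The matching overlap and correlation over all genes are not given here, so whether these values are particular to the 42 was not tested. As with OSMI-2 alone, combination replicate 2 was below replicate 1 in 41 of the 42 genes, against 49.4% of all genes. By limma without the trend 5 genes fell, where 501 of all genes tested did so, against 2416 with the trend. Fewer of all genes were also called lower without combination replicate 2. Without combination replicate 2, 10 fell, and without AT7519 replicate 2 a single gene, POLE, rose. These 10 fell whichever of the 8 libraries was left out: CDC6, GMNN, MCM2, MCM4, MCM6, MCM7, GINS2, GINS3, MCM10 and FEN1.

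AT7519 alone split the genes. Against control 11 rose and 11 fell, shares of 26.2% each, where 26% of all genes rose and 27.2% fell, so the counts were near those of all genes. The 11 that fell were CLSPN, GINS3, DTL, CHAF1A, MCM10, RFC4, E2F2, POLA2, SLBP, PRIM1 and CDC6, with log2 changes between -0.96 and -0.25. The 11 that rose on the deposited scale were TK1, GINS2, FEN1, RFC2, TYMS, RRM1, LIG1, MCM5, MCM2, POLA1 and MCM4, with log2 changes between 0.26 and 0.48. The median of the 42 was 0.099, against -0.0042 over all genes. The number that rose was 11 with TMM factors and 13 with equal upper quartiles, but with equal read totals 0 rose (also 0 at an unadjusted p below 0.05) and 20 fell, and with equal mitochondrial mRNAs 0 rose (0 unadjusted) and all 42 fell. Of all 19393 genes tested, 2036 rose and 8364 fell with equal totals, and 383 rose and 14656 fell with equal mitochondrial mRNAs. Of the 11 falls, 10 (all but PRIM1) passed on all 4 other scales. Equal totals and equal mitochondrial mRNAs lower all genes with AT7519, so a fall deepens on those scales by construction.

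CLSPN had 2147 and 2509 normalised counts with AT7519, against 4497 and 4506 in control (log2 change -0.96, SE 0.12, adjusted p = 1.66e-05). GINS3 had 864 and 803 with AT7519, against 1468 and 1731 in control (log2 change -0.94, SE 0.15, adjusted p = 0.000112). DTL, the substrate receptor of the ubiquitin ligase that removes CDT1 in S phase, had 3759.7 and 3316 with AT7519, against 6512 and 6200.4 in control (log2 change -0.85, SE 0.12, adjusted p = 3.01e-05). These 3 genes stood at between 1.80-fold and 1.94-fold below control, with no overlap. Both AT7519 libraries lay below both control libraries for 16 of the 42 genes, where 38.4% of all genes did so. They lay above for 20, where 37.7% of all genes did so, so such separation was common. MCM10 had 3146 and 2989 with AT7519, against 5009 and 5415 in control (log2 change -0.76, SE 0.10, adjusted p = 2.98e-05). E2F2 had 871 and 956 with AT7519, against 1433 and 1489.9 in control (log2 change -0.68, SE 0.14, adjusted p = 0.00075).

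The other factor of the family, E2F1, did not pass the test, with 5868 and 5273 normalised counts with AT7519 and 5372 and 5133 in control (log2 change 0.083, SE 0.11, adjusted p = 0.546). SLBP had 5969 and 5294 with AT7519, against 7142 and 6843 in control (log2 change -0.31, SE 0.10, adjusted p = 0.0139). CDC6 had 7469 and 6991 with AT7519, against 8458 and 8707 in control (log2 change -0.25, SE 0.086, adjusted p = 0.0258). SLBP and CDC6 thus fell by little, without overlap. ORC1, CDT1 and GMNN, the other non-MCM licensing genes named above, had log2 changes of -0.088, 0.20 and -0.03, none of which passed.

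In nucleotide supply, 3 of 4 genes rose on the deposited scale, and in Okazaki fragment processing and uracil removal 2 of 3, where 26% of all genes did so. TK1 had 17469.8 and 18042 normalised counts with AT7519, against 12736 and 12666 in control (log2 change 0.48, SE 0.083, adjusted p = 0.000216, with equal totals 0.14 and with equal mitochondrial mRNAs -0.43). TYMS had 15535 and 15054 with AT7519, against 11026 and 11035 in control (log2 change 0.47, SE 0.10, adjusted p = 0.00156). RRM1 had 32572 and 31237 with AT7519, against 23239.5 and 23296 in control (log2 change 0.46, SE 0.094, adjusted p = 0.000958). The partner subunit RRM2 did not pass, at 21577 and 21394 with AT7519 and 20979 and 23050.0 in control (log2 change -0.034, SE 0.12, adjusted p = 0.84). FEN1 had 14286 and 12739 with AT7519, against 9730.5 and 9693 in control (log2 change 0.47, SE 0.10, adjusted p = 0.000914). UNG, the uracil glycosylase, did not pass (log2 change 0.14, adjusted p = 0.203). LIG1, the ligase that seals Okazaki fragments, had 3698 and 4204 with AT7519, against 2999.8 and 2766 in control (log2 change 0.45, SE 0.11, adjusted p = 0.00412).

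Genes of 1 complex went separate ways with AT7519. Within the GINS complex, GINS2 had 4797 and 4754 normalised counts with AT7519, against 3422 and 3424 in control (log2 change 0.48, SE 0.11, adjusted p = 0.00152), while GINS3 fell. GINS1 had 7975 and 7216 with AT7519, against 8155 and 9027 in control (log2 -0.18, adjusted p = 0.19), and GINS4 a log2 change of -0.011; neither passed. In the clamp loader, RFC2 rose (log2 0.47) and RFC4 fell (log2 -0.72), while RFC3 and RFC5 did not pass (-0.21 and 0.12). The clamp itself, PCNA, had 26448 and 24124 with AT7519 and 21809 and 22440.1 in control, and did not pass either (log2 change 0.19, SE 0.094, adjusted p = 0.104). In the polymerase alpha and primase complex, POLA1 rose (log2 0.29) and POLA2 and PRIM1 fell (-0.39 and -0.29). The distance between the changes of 2 genes does not depend on the scale, which moves all genes of a library alike, but the direction of each rise does: POLA1 was at -0.054 with equal totals and -0.63 with equal mitochondrial mRNAs, and RFC2 and GINS2 were at -0.44 and -0.44 with equal mitochondrial mRNAs.

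Among the MCM genes with AT7519, MCM5, MCM2 and MCM4 passed (log2 0.42, 0.39 and 0.26), and MCM6, MCM7 and MCM3 had 0.19, 0.18 and 0.17. MCM7 had 28952 and 27835 normalised counts with AT7519 and 25062 and 25080.2 in control, separate but with an adjusted p of 0.127. With equal mitochondrial mRNAs all 6 fell, by between 0.49 (MCM5) and 0.75 (MCM3) on the log2 scale. With equal totals the MCM4 change was -0.079. POLE was uneven, at 6373 and 8293 with AT7519 and 6961 and 6108 in control, and its AT7519 libraries stood on either side of a control library (log2 change 0.16, SE 0.12, adjusted p = 0.29). Of the 22 calls, 16 stood whichever of the 8 libraries was left out. Without control replicate 1, 7 genes fell and 9 rose.

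**Figure D3:**
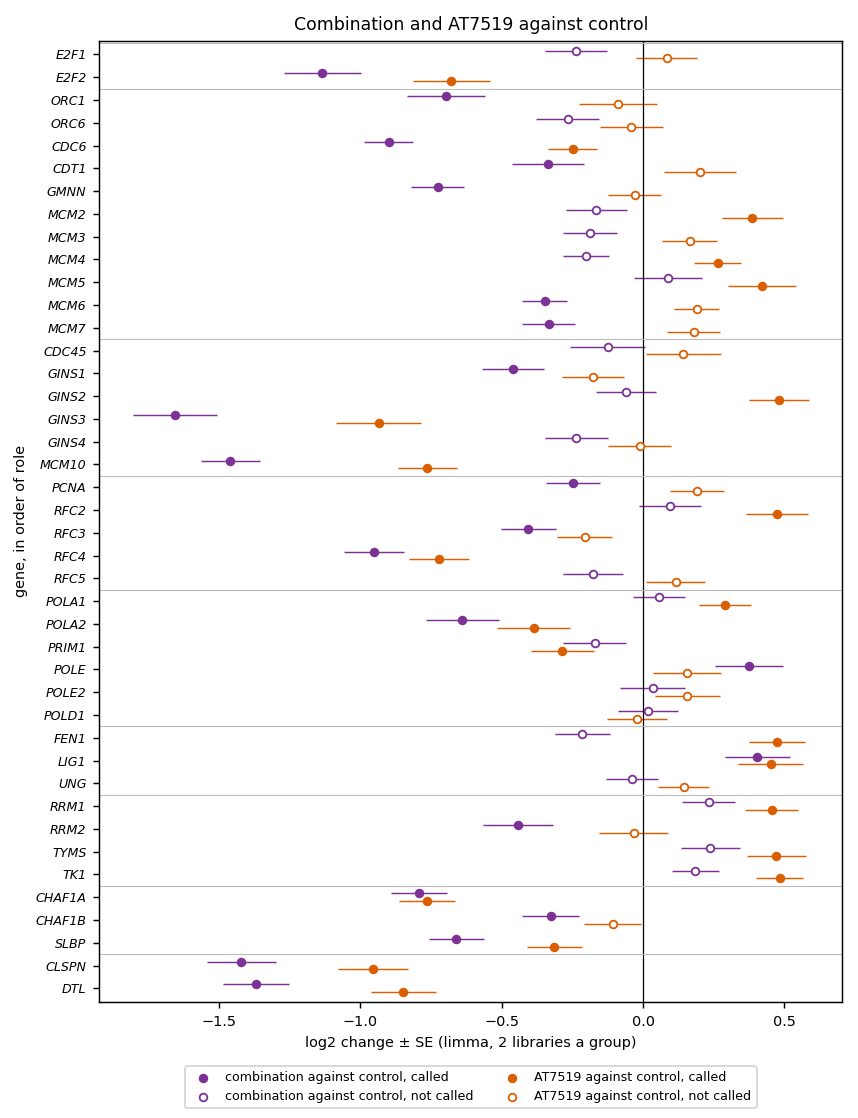
Points are the log2 changes from control (horizontal axis, limma, 2 libraries a group) of each gene, in order of role down the page, with the combination (purple) and with AT7519 alone (orange); bars are 1 SE and filled points passed an adjusted p of 0.05. For most genes the purple point lies left of the orange one; CLSPN, DTL, GINS3, MCM10, RFC4, CHAF1A and E2F2 lie left of -0.5 in both.

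With both compounds, 20 of the 42 genes fell against control and 2 rose, where 27.6% of all genes fell and 26.3% rose. As a share, 47.6% of the 42 fell and 4.76% rose, and their median log2 change was -0.24, against 0.022 over all genes. The genes that fell were E2F2, the loaders ORC1, CDC6 and CDT1, GMNN, MCM6 and MCM7, 3 helicase activators (GINS1, GINS3, MCM10), PCNA with RFC3 and RFC4, POLA2, RRM2, all 3 genes of histone supply and chromatin assembly (CHAF1A, CHAF1B, SLBP), and CLSPN and DTL. LIG1 and POLE rose. With equal totals the split was 0 higher and 32 lower, with equal mitochondrial mRNAs 0 and 42 and with equal upper quartiles 5 and 16, while 16 of the falls passed on all 4 other scales. Here too equal totals and equal mitochondrial mRNAs deepen a fall by construction. Of all 19393 genes, 2652 were higher and 7369 lower with equal totals, and 425 and 14590 with equal mitochondrial mRNAs. At an unadjusted p below 0.05, none of the 42 was higher with equal totals or with equal mitochondrial mRNAs.

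The falls were deepest for 4 genes that had also fallen with AT7519 alone. GINS3 had 532 and 479.6 normalised counts in combination libraries, against 1468 and 1731 in control (log2 change -1.66, SE 0.15, adjusted p = 5.43e-07), a 3.15-fold fall. MCM10 had 1894 and 1889 in combination libraries, against 5009 and 5415 in control (log2 change -1.46, SE 0.10, adjusted p = 7.67e-08). CLSPN had 1766 and 1598 in combination libraries, against 4497 and 4506 in control (log2 change -1.42, SE 0.12, adjusted p = 3.68e-07). The 2 groups were far apart in each of these genes. DTL had 2539 and 2384 in combination libraries, against 6512 and 6200.4 in control (log2 change -1.37, SE 0.12, adjusted p = 3.21e-07). E2F2 had 665 and 664 in combination libraries, against 1433 and 1489.9 in control (log2 change -1.14, SE 0.14, adjusted p = 7.85e-06), nearly equal in its pair of combination libraries.

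Of the licensing genes, CDC6 had 4852 and 4360.4 normalised counts in combination libraries, against 8458 and 8707 in control (log2 change -0.90, SE 0.086, adjusted p = 9.67e-07). GMNN had 3289.9 and 2998 in combination libraries, against 5107 and 5292 in control (log2 change -0.73, SE 0.095, adjusted p = 1.67e-05). ORC1 had 2119 and 1610.3 in combination libraries, against 3106 and 2886 in control (log2 change -0.70, SE 0.14, adjusted p = 0.000634). All 3 fell without overlap. CDT1 had 2809 and 2099 in combination libraries, against 3010.4 and 3127 in control (log2 change -0.34, SE 0.13, adjusted p = 0.0374). MCM7 had 20834 and 18986 in combination libraries, against 25062 and 25080.2 in control (log2 change -0.33, SE 0.095, adjusted p = 0.00812). CDT1 and MCM7 fell too, and again no combination library reached a control library. Both combination libraries lay below both control libraries for 30 of the 42 genes, where 38% of all genes did so. They lay above for 6, where 39% of all genes did so.

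E2F1 did not pass, with 4503 and 4402 normalised counts in combination libraries and 5372 and 5133 in control (log2 change -0.24, SE 0.11, adjusted p = 0.0796). SLBP had 4713 and 4143 in combination libraries, against 7142 and 6843 in control (log2 change -0.66, SE 0.10, adjusted p = 5.10e-05). PCNA had 19639 and 17677 in combination libraries, against 21809 and 22440.1 in control (log2 change -0.25, SE 0.094, adjusted p = 0.0387). Thus SLBP and PCNA fell and E2F1, though lower in both libraries, did not meet the threshold. GINS1 and RRM2 fell by 0.46 and 0.44 on the log2 scale. GINS1 had 6081 and 6392 in combination libraries, against 8155 and 9027 in control. RRM2 had 17969 and 14569 in combination libraries, against 20979 and 23050.0 in control, and in both genes the groups were separate.

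Of the genes that had risen with AT7519 on the deposited scale, LIG1 was the one that also passed in the combination against control. TK1 had 14459.7 and 14427 normalised counts in combination libraries and 12736 and 12666 in control (log2 change 0.19, SE 0.083, adjusted p = 0.0745). TYMS had 13575 and 12470.3 in combination libraries and 11026 and 11035 in control (log2 change 0.24, SE 0.10, adjusted p = 0.068). RRM1 had 28552 and 26172 in combination libraries and 23239.5 and 23296 in control (log2 change 0.23, SE 0.094, adjusted p = 0.0505). Each of the 3 lay above control in both libraries without passing the test. GINS2 had 3527 and 3058 in combination libraries and 3422 and 3424 in control (log2 -0.06), and FEN1 8903 and 7871 in combination libraries and 9730.5 and 9693 in control (log2 -0.21); neither passed. LIG1 had 4088 and 3559.8 in combination libraries, against 2999.8 and 2766 in control (log2 change 0.40, SE 0.11, adjusted p = 0.0082), and POLE 8911 and 8033 in combination libraries, against 6961 and 6108 in control (log2 change 0.38, SE 0.12, adjusted p = 0.0162). With equal mitochondrial mRNAs LIG1 and POLE were lower instead, at -0.57 and -0.60, and without control replicate 2 or combination replicate 1 neither passed.

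**Figure D4:**
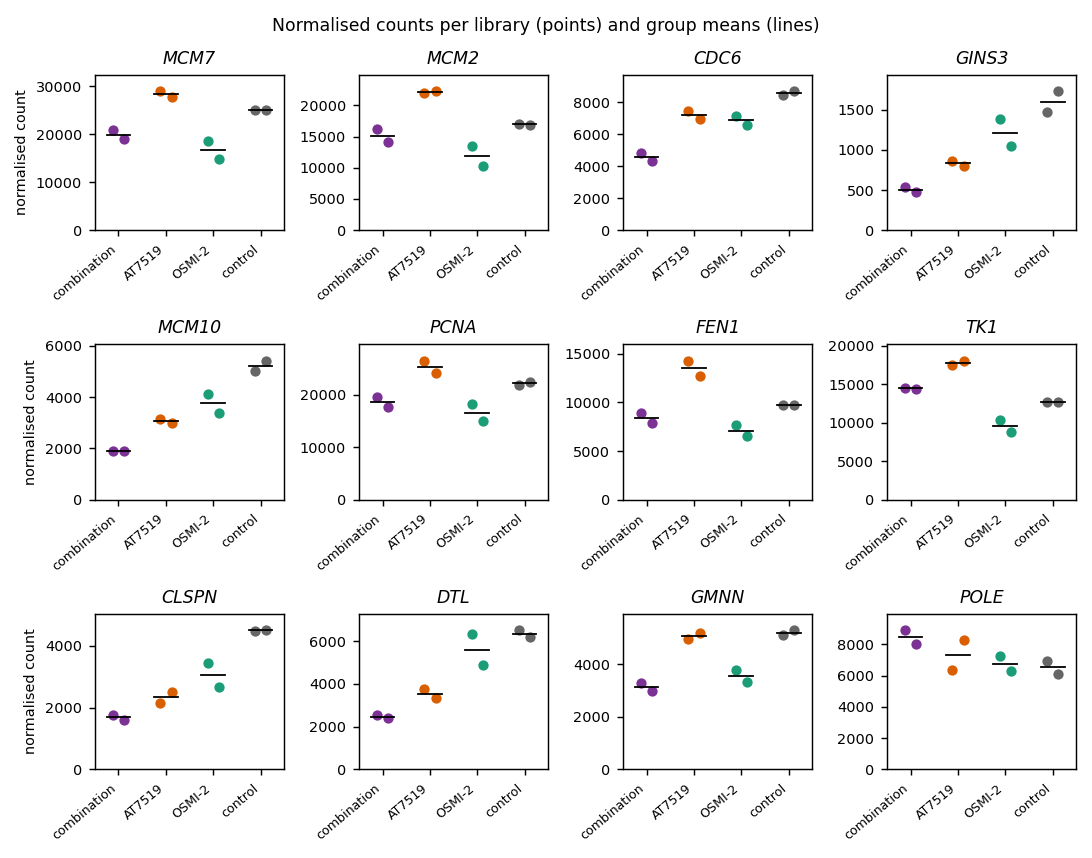
Normalised counts (vertical axes, each from 0) of 12 of the genes by group, with a point for each library and a line at the mean of 2. MCM7, MCM2, PCNA, FEN1 and TK1 are highest with AT7519 and lowest with OSMI-2, while GINS3, MCM10, CLSPN and DTL are lowest with the combination, then with AT7519, then with OSMI-2, and highest in control; POLE overlaps between the single treatments and control.

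When AT7519 was added to OSMI-2, the split of AT7519 alone was seen again. Relative to OSMI-2 alone, 13 of the 42 genes rose with the combination and 10 fell, where 27.5% of all genes rose and 27.3% fell. The genes that fell both here and in AT7519 against control were 9 (CDC6, CHAF1A, CLSPN, DTL, E2F2, GINS3, MCM10, RFC4 and SLBP), which is 81.8% of the 11 there and 90% of the 10 here. On the deposited scale 10 rose in both (GINS2, LIG1, MCM2, MCM4, MCM5, POLA1, RFC2, RRM1, TK1 and TYMS), or 90.9% of the 11 and 76.9% of the 13. Across the 42 genes, Spearman's rho was 0.92 and Pearson's r 0.94 between the 2 comparisons, which share no library but share 1 estimate of the spread. Here too the overlap and correlation over all genes are not given, so whether the agreement is particular to the 42 was not tested. DTL fell most after GINS3, with 2539 and 2384 normalised counts in combination libraries, against 6326 and 4865 with OSMI-2 (log2 change -1.17, SE 0.12, adjusted p = 1.37e-06). TK1 rose most, with 14459.7 and 14427 in combination libraries, against 10307 and 8767 with OSMI-2 (log2 change 0.60, SE 0.083, adjusted p = 2.80e-05); with equal mitochondrial mRNAs it was at -0.25. On the other scales the split of higher and lower genes was 1 and 17 (equal totals), 0 and 41 (equal mitochondrial mRNAs, with 0 higher at an unadjusted p below 0.05 too) and 20 and 9 (equal upper quartiles). The number that rose was 7 without OSMI-2 replicate 2, 8 without combination replicate 1 and 21 without OSMI-2 replicate 1.

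No gene of the 42 showed a difference between the effect of OSMI-2 with and without AT7519 that passed the test. The interaction was called for 0 of 42 by limma, edgeR and DESeq2, where 0.975% of all genes were called lower and 0.0619% higher by limma. At an unadjusted p below 0.05, 2, 1 and 3 of the 42 were lower by these tools and 0 higher, against 10.1%, 10.3% and 9.3% of all genes in either direction. The smallest adjusted p among the 42 was 0.313 by limma, 0.37 by edgeR and 0.142 by DESeq2. The lowest estimate was that of CDT1, at -0.40 (SE 0.18), and the highest that of GINS1, at 0.27 (SE 0.15), with a median of 0.077 against 0.015 over all genes. With SEs of this size the test does not show that the effects of OSMI-2 were alike.

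**Figure D5:**
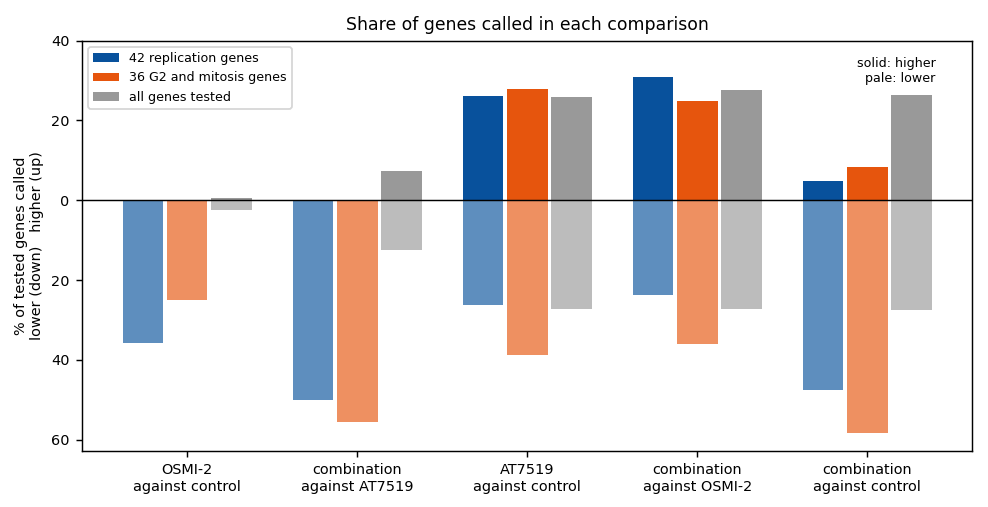
Bars give the percentage of genes called higher (solid, up from 0) or lower (pale, down from 0) in each comparison, for the 42 replication genes (blue), 36 G2 and mitosis genes (orange) and all 19393 genes tested (grey). With OSMI-2 against control 35.7% of the replication genes were lower against 2.38% of all genes; with AT7519 against control the blue and grey bars are close to each other.

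Other genes of the pathway, outside the 42, were read in the same way. Of 11 genes of the E2F, DP and RB family, 1 fell with OSMI-2, 6 fell and 2 rose with AT7519, and 7 fell and 1 rose with the combination. Of all genes, 2.38% fell with OSMI-2, 27.2% fell and 26% rose with AT7519, and 27.6% and 26.3% with the combination. By group mean E2F4 was higher, at 8001 normalised counts in combination libraries and 9915 with AT7519, against 5356 in control. E2F5 fell most, with a log2 change of -1.96 in the combination and -1.95 with AT7519, both against control, followed by the repressor E2F7 at -1.80 and -1.70; E2F3 was the 1 gene that fell with OSMI-2 (-0.35). Of 8 S-phase cyclins, kinases and the phosphatase CDC25A, 1 fell with OSMI-2, 6 fell and 1 rose with AT7519, and 6 fell with the combination. CCNE2, the cyclin E2 gene that partners CDK2 at S-phase entry, changed by -2.09 in the combination and -1.43 with AT7519. CDC25A, which activates CDK2, changed by -1.63 in the combination and -0.62 with OSMI-2, and DBF4, the partner of the CDC7 kinase, by -0.78 with AT7519.

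Of 28 other genes of the replication machinery, 4 fell with OSMI-2, 9 fell and 10 rose with AT7519, and 14 fell and 8 rose with the combination. Among all genes tested 2.38% fell with OSMI-2, 27.2% fell and 26% rose with AT7519, and 27.6% fell and 26.3% rose with the combination. The named falls were MCM8 (-0.52) and POLE3 (-0.43) with OSMI-2, MCM9 (-0.94) and POLD3 (-0.92) with AT7519, and POLD3 (-1.23) and ORC5 (-1.13) with the combination. Other genes were higher by group mean with AT7519. POLD2 averaged 37377 normalised counts with AT7519, against 22039 in control, and POLE4 4858, against 2955. Of the other nucleotide genes, DTYMK and DUT rose with AT7519 (0.56 and 0.48) and with the combination (0.28 and 0.43). Of 9 chromatin replication genes, 2 fell with OSMI-2 (HELLS at -0.44 and the histone chaperone NASP at -0.35), 4 fell and 2 rose with AT7519, and 5 fell with the combination. UHRF1, which brings DNMT1 to newly copied DNA, changed by -1.05 in the combination and -0.84 with AT7519, and the chaperone ASF1A by -1.03 and -0.59. These are log2 changes against control, on the deposited scale.

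The 36 G2 and mitosis genes, which peak later in the cycle, were set beside the 42. With OSMI-2 9 fell and none rose against control, with 35 of 36 estimates negative (median log2 -0.23), with AT7519 14 fell and 10 rose (0.021), and with the combination 21 fell and 3 rose (-0.32). Relative to AT7519, the combination lowered 20 and raised none (-0.27). Their shares lower, 25% with OSMI-2 and 55.6% in the combination against AT7519, stood beside 35.7% and 50% of the 42 replication genes. Among all genes tested these shares were 2.38% and 12.5%. With AT7519 against control 27.2% of all genes fell and 26% rose, and with the combination against control 27.6% and 26.3%. The difference between the lists was not tested.

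As checks of the treatment, OGT mRNA was higher with OSMI-2 (log2 0.37, adjusted p = 0.0434) and MGEA5, the gene of the opposing O-GlcNAcase, lower (-0.39, adjusted p = 0.0221), both against control. MGEA5 was not lower where OSMI-2 was added to AT7519. It averaged 27728.5 normalised counts in combination libraries, against 24058.5 with AT7519 and 26614.5 in control. OGT averaged 38386 in combination libraries, against 26279.6 with AT7519. HEXIM1, which encodes a protein that binds and inhibits CDK9, was lower with AT7519 (-1.64, adjusted p = 7.09e-08). MYC was lower in the combination against AT7519 (-0.64, adjusted p = 0.000177). Its means were 10140.1 normalised counts in combination libraries, 15802.3 with AT7519, 13612.7 with OSMI-2 and 14484.1 in control.

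Some of the 42 genes share exon bases with a neighbour, which could draw reads to either. On the same strand, POLA2 shares 2012 exon bases with AP000944.2, RRM2 1077 with AC007240.1, POLD1 426 with AC020909.1, PRIM1 362 with AC117378.1, CHAF1B 89 with MORC3 and FEN1 49 with FADS2. PRIM1 also shares 33 with NACA. On the opposite strand, GINS4 shares 1159 with AC009630.2, MCM2 1113 with AC023593.1, TYMS 967 with ENOSF1, GINS3 558 with AC009118.2, and MCM7 392 with AP4M1. CLSPN, RFC5, LIG1, FEN1, PRIM1, CHAF1A, RRM1, RFC4 and GINS2 each share at most 280 exon bases with any 1 gene on that strand. The libraries were strand-specific, per the labels, but whether the counting used strand is not given in the sources used here, so values of these genes carry that uncertainty.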

How the data were processed

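RNA from LNCaP cells was sequenced in 8 libraries, 2 in each of 4 groups taken from the sample titles. The submitters' processing notes name STAR, HTSeq, DESeq2 and hg19 or GRCh37, with no versions. The deposited signal is, judged from its values, reads per gene scaled by the authors with a single factor for each library, since 100% of values came out whole (within 0.01) at 1 read's worth per library. The labels give the doses in µM in the series design and in mM in the treatment field; µM is used here.

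The 28 empty lines of the table were left out, and 19393 genes averaging 10 or more normalised counts were tested with limma 3.58.1 (R 4.3.3, mean-variance trend, 1 model for 4 groups, 4 residual degrees of freedom) on log2(normalised count + 1), a scale that understates changes of low genes. P-values are two-sided, adjusted by Benjamini-Hochberg over all genes of a comparison, and called at 0.05; rose and fell mean called. edgeR 4.0.16 and DESeq2 1.42.0 on the recovered reads, other scales, pseudocounts and filters, omission of each library and a replicate block were the alternatives. The linear model was tested on simulated data. Libraries of a group differed by more than counting noise (chi-square per degree of freedom 19.9 to 31.1).

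The 42 members, the lists, tests and alternatives were chosen with earlier results of these data known. Values per library are given for the 3 called members with the largest fall and rise in each of 4 comparisons, the most abundant member of each of 9 role groups, and 11 members set by hand (MCM7, CDC6, CDT1, ORC1, E2F1, E2F2, PCNA, RRM2, TYMS, CLSPN, SLBP); of genes outside, the 2 with the largest called change per list and comparison against control, except 1 gene that is not reported here. Exon lengths and overlaps are from GENCODE 29 on GRCh38, not the authors' build.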

Additional observations from a re-analysis of the deposited data

How the results depend on the processing

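Of the members lower with OSMI-2 against control (15), equal library totals left 6, equal upper quartiles 8, equal mitochondrial mRNAs 33, DESeq2 28, limma without the trend 0 (27 at an unadjusted p below 0.05), no filter on low values 5, only the groups of the comparison 28, and omission of 1 library 0 to 18. The labels do not say whether equal replicate numbers pair the samples, and the check used did not settle it. Correlations of same-numbered deviations were low, 0.021 to 0.123 over 6 pairs of groups, with the highest for OSMI-2 and the combination. Each was positive. With 2 libraries a group the deviations mirror each other, so a correlation between unlike numbers is minus that between equal numbers. Comparing the 2 therefore adds nothing on pairing. A replicate block gave 24 lower with OSMI-2 and 4 higher in the combination against control, and moved no other count by over 1.5 times. With AT7519 against control, 11 higher became 0 (equal totals), 0 (equal mitochondrial mRNAs) and 7 (no trend), and 11 lower became 20, 42 and 7, with 7 to 11 on omission of 1 library. For the combination against control, 2 higher became 0, 0 and 0 (1 unadjusted without the trend), 5 with equal upper quartiles, 4 with only its groups and 0 to 4 on omission of 1 library (1 unadjusted in each case of 0), and 20 lower became 32 with equal totals and 42 with equal mitochondrial mRNAs. For the combination against AT7519, 21 lower became 5 without the trend and 10 to 24 on omission of 1 library, and the count higher ran from 0 to 1. Against OSMI-2 alone, in the combination 13 higher became 1 (equal totals), 0 (equal mitochondrial mRNAs), 20 (equal upper quartiles), 8 (no trend) and 7 to 21 on omission of 1 library, and 10 lower became 17 and 41. Where 1 library was left out, the lone library of its group was assumed to vary like the other groups. The interaction stayed at 0 members under all its alternatives. The pseudocounts, the stricter filter, TMM factors and edgeR moved no count of calls by over 1.5 times. A scale changes every gene of a library alike. The cause of the other shifts was not tested.

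Single log2 changes that turned below 0 were these. With equal library totals they were, in AT7519 against control, MCM4 -0.079, POLA1 -0.054, and in the combination against OSMI-2, ORC6 -0.29, MCM4 -0.042, MCM7 -0.075, POLE -0.0093, POLE2 -0.015, CHAF1B -0.30. With equal mitochondrial mRNAs they were, in AT7519 against control, E2F1 -0.83, CDT1 -0.71, MCM2 -0.53, MCM3 -0.75, MCM4 -0.65, MCM5 -0.49, MCM6 -0.73, MCM7 -0.74, CDC45 -0.77, GINS2 -0.44, PCNA -0.72, RFC2 -0.44, RFC5 -0.80, POLA1 -0.63, POLE -0.76, POLE2 -0.76, FEN1 -0.44, LIG1 -0.46, UNG -0.77, RRM1 -0.46, TYMS -0.44, TK1 -0.43. In the combination against OSMI-2 they were E2F1 -0.72, ORC6 -0.81, MCM2 -0.49, MCM3 -0.66, MCM4 -0.56, MCM5 -0.37, MCM6 -0.66, MCM7 -0.59, CDC45 -0.53, GINS1 -0.76, GINS2 -0.33, GINS4 -0.70, PCNA -0.67, RFC2 -0.38, RFC5 -0.67, POLA1 -0.42, POLE -0.53, POLE2 -0.53, POLD1 -0.72, FEN1 -0.61, LIG1 -0.30, UNG -0.64, RRM1 -0.29, RRM2 -0.80, TYMS -0.29, TK1 -0.25, CHAF1B -0.82. Those of the combination against control were MCM5 -0.89, RFC2 -0.88, POLA1 -0.92, POLE -0.60, POLE2 -0.94, POLD1 -0.96, LIG1 -0.57, RRM1 -0.75, TYMS -0.74, TK1 -0.79.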

Other observations

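Gene span was set beside the response to AT7519. The 11 members lower with AT7519 against control had a median gene span of 42.4 kb, the 11 higher ones 23.0 kb and the 20 others 20.2 kb. Across the 42 members, Spearman's rho between span and the log2 change with AT7519 against control was -0.33, against -0.19 over 12753 protein-coding genes, and with OSMI-2 against control it was 0.17, against -0.0062. For AT7519 added to OSMI-2 (the combination against OSMI-2) it was -0.13, against -0.15, and for the combination against control -0.058, against -0.15. FEN1, the shortest of the higher members at 4.61 kb, and POLA1, the longest at 303 kb, both rose on the deposited scale.

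Members with and without E2F-type letters in the promoter window were set side by side, with no test. Of the 14 members lower with OSMI-2 that had a window, 10 held such letters, as did 13 of the 25 others. With AT7519 they stood in 6 of 11 lower members, 5 of 9 higher members and 12 of 19 others. With the combination against AT7519 they stood in 13 of 20 lower members and 10 of 19 others. Over the 23 members with such letters and the 16 without, the median log2 change for OSMI-2 against control was -0.38 and -0.36. For AT7519 against control it was 0.16 and -0.038, and for both compounds against control -0.33 and -0.24. For the combination against AT7519 it was -0.44 and -0.28.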
